A study of Mus musculus with 16 samples.

Results

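The genes described here are 10 purinergic receptor genes, P2rx2, P2rx3, P2rx4, P2rx5, P2rx6, P2rx7, P2ry1, P2ry2, P2ry12 and P2ry14, taken by symbol from the 52636 genes counted in mouse dorsal root ganglia (DRGs). All 10 passed the filter on low counts, which left 21371 genes to test. The series held bulk RNA sequencing of L3-6 DRGs from 16 male C57Bl6/J mice, 3 to 4 months old, with 1 mouse per library and 4 mice each in Sham-Saline, Sham-DMI, SNI-Saline and SNI-DMI. Spared nerve injury (SNI) was the ligation and cutting of the common peroneal and sural branches of the left sciatic nerve with the tibial branch left whole, so the ganglia held cut and uncut neurons together, and sham mice had surgery without it. Desipramine (DMI), a tricyclic antidepressant that blocks noradrenaline reuptake, was injected intraperitoneally at 15 mg/kg 2 times a day for 3 weeks, and the other mice received saline. The study's text places the first injection 4 weeks after surgery in one passage and 4 months after it in another. The design asks how nerve injury and DMI each changed the ganglion, and whether the injury effect differed under the drug.

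Purinergic receptors bind nucleotides that leave damaged or active cells. P2X receptors are ATP-gated cation channels built from 3 subunits, and P2Y receptors are coupled to G proteins and answer to ADP, ATP, UTP or UDP-sugars. In sensory ganglia P2X3, alone or together with P2X2, carries ATP responses of small nociceptors, whereas P2X4, P2X7 and P2Y12 are best known from microglia, macrophages and glial cells and have been studied as pain targets. ATP is broken down outside the cell to ADP, AMP and adenosine by ectonucleotidases.

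Reads on genes ran from 41194238 to 73920332 per library and made up 79.56% to 81.17% of all read pairs. The labels name spinal cord as the tissue and dorsal root ganglia as the cell type. Summed over a list of 10 DRG neuron markers the libraries held 7162 to 8550 CPM (reads scaled to the same total of reads on genes in every library), against 44.9 to 69.1 CPM over 11 spinal cord markers, of which Slc32a1, Lbx1, Chat, Mnx1, Lhx1 and Olig2 were under 0.1 CPM. Atf3, induced in cut sensory neurons, was higher in SNI-Saline than in Sham-Saline by 2.32 on the log2 scale (edgeR quasi-likelihood test, adjusted p = 2.51e-05). It was also higher in Sham-DMI than in Sham-Saline, by 0.69 (adjusted p = 0.0391, edgeR). Of 9 markers of injured neurons, 8 were higher at an adjusted p under 0.1 after injury under saline (12% of all genes). In Sham-DMI versus Sham-Saline 5 were (23.4% of all genes), and their part in the values of DMI in sham mice was not tested. The numbers in the library names run in blocks by group, so the order of the libraries cannot be told apart from surgery and treatment. In bulk tissue, fewer cells of a type and less RNA per cell cannot be told apart, which holds for every difference given here.

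Among the 10 genes, 4 passed the threshold of an adjusted p under 0.1 in some comparison: P2rx4, P2rx6, P2ry1 and P2ry12. The 250 bases upstream of their RefSeq transcription starts (GRCm38.p6) are shown because these genes are the ones the results turn on, and because their start regions are unlike each other. The sequences are written 5′ to 3′ on the gene's strand, and the capitals mark CG pairs.
P2rx4, chr5:122707294-122707543, plus strand: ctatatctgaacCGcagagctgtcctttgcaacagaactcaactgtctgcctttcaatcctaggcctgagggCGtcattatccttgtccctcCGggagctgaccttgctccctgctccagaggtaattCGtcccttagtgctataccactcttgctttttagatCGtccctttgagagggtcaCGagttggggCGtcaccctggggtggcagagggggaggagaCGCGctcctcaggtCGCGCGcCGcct
P2rx6, chr16:17561635-17561884, plus strand: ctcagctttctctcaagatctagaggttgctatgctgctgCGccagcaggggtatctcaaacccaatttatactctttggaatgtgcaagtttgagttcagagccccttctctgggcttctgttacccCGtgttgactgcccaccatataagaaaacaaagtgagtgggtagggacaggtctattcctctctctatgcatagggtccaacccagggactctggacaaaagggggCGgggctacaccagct
P2ry1, chr3:61002535-61002784, plus strand: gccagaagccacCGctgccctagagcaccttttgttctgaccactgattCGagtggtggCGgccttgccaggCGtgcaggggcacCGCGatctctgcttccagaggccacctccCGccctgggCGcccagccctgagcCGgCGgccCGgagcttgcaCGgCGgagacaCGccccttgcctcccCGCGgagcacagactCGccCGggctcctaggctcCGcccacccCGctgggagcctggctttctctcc
P2ry12, chr3:59262986-59263235, minus strand: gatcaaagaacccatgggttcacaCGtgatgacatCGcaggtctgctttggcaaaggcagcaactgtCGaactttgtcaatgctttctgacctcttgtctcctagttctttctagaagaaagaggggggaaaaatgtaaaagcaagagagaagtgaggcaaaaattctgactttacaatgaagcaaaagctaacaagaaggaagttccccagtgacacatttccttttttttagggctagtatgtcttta
The P2ry1 window held 20 CG pairs with 70.8% G and C, and that of P2rx4 held 13 CG pairs with 57.2%. The windows of P2rx6 and P2ry12 held 3 CG pairs each, with 50.8% and 41.6% G and C. The median over all 32851 starts of the same table was 6 CG pairs and 52.4%. In all, 7 of the 10 genes had an entry, with 12 starts, and P2rx2, P2rx3 and P2rx5 had none. The search on both strands covered 3 motifs, none of which contains another. TGANTCA was searched with any middle base, which is looser than the usual site of AP-1 factors such as Jun with Atf3 or Fos, with C or G there. It was found in 3 of the 12 starts (P2rx7 and P2ry14) and in 6.75% of all starts. The match in the P2ry14 window at chr3:59131329-59131578 has A in the middle. TGACGTCA, the full cyclic AMP response element, was found in 0 of the 12 and in 1.55% of all. GAGGAA, an Ets motif of PU.1 in myeloid cells, was found in 5 of the 12 (P2rx6 and P2ry14) and in 23.3% of all. For TGANTCA and GAGGAA most matching starts were alternative starts of P2ry14, and some of its windows overlap and share the same GAGGAA match. Starts of a gene are thus not independent, and these shares over starts cannot be read as enrichment. A match is a string of letters only, and these counts say nothing on binding.

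Levels between genes were compared per kilobase of exon (RPKM, the CPM divided by the exon length in kilobases) in Sham-Saline. P2rx3 led with 74.8 ± 6.01 RPKM (SD, n = 4). Next came P2ry1 at 12.4 ± 1.93 RPKM and P2rx6 at 8.58 ± 0.531 RPKM, and none of the 3 overlapped its neighbour in the order. The lengths include exon bases shared with other genes, most of all in P2ry1 (992 of 4291) and P2rx6 (554 of 3995). Reads on those bases were not counted, so these levels can be understated. P2ry2, P2rx5, P2rx4 and P2rx7 lay between 5.27 and 6.03 RPKM, and neighbours in this stretch overlapped. P2rx2 (3.11 ± 0.368 RPKM), P2ry12 (2.22 ± 0.222 RPKM) and P2ry14 (0.249 ± 0.0331 RPKM) followed, each clear of the next. P2rx3 alone gave 72% ± 2.02 of the summed RPKM of the 6 P2X genes in Sham-Saline, and 68.3% ± 2.68 in Sham-DMI, 68.2% ± 2.36 in SNI-Saline and 65.9% ± 1.76 in SNI-DMI.

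**Figure D1:**
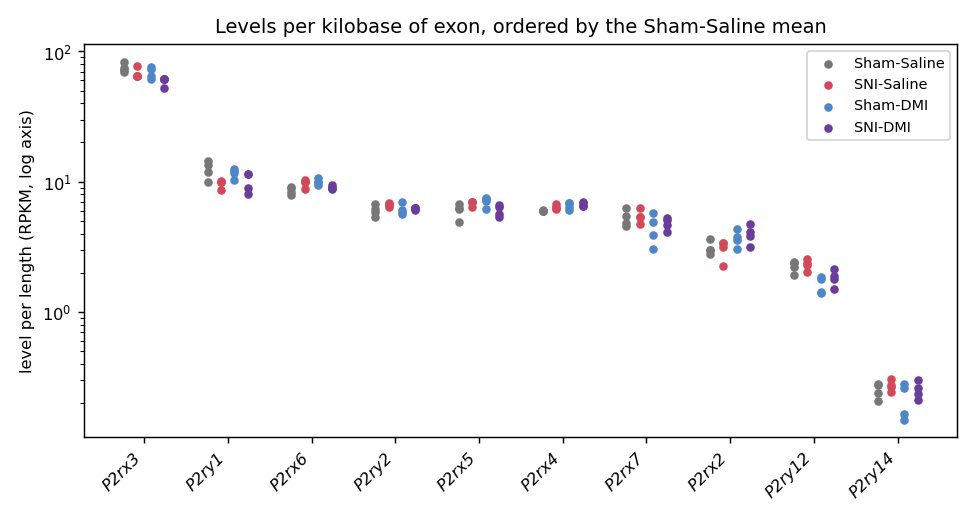
Level of each purinergic receptor gene, in RPKM on a log axis, with 1 point per mouse (n = 4 per group). By the Sham-Saline mean P2rx3 stands at 74.8 RPKM above all others and P2ry14 at 0.249 RPKM is lowest. In Sham-Saline P2ry2, P2rx5, P2rx4 and P2rx7 overlap.

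In the comparison of SNI-Saline with Sham-Saline, P2rx6 was higher and P2ry1 lower, and the other 8 genes did not pass the threshold. That is 2 of 10 genes against 12% of the 21371 genes tested, and the same 2 had an unadjusted p under 0.05 against 23% of all genes. The median log2 fold change of the 10 was 0.08, and that of all genes -0.001. In the comparison of Sham-DMI with Sham-Saline, P2rx4 and P2rx6 were higher and P2ry12 was lower, 3 of 10 genes against 23.4% of all, with medians of -0.04 and -0.021, and P2rx5 joined them at an unadjusted p under 0.05 (4 of 10 against 30.6% of all). Both shares are near the background. Both comparisons share the Sham-Saline mice. In SNI-DMI versus SNI-Saline 0 of 10 passed (2.93% of all genes), while 3 had an unadjusted p under 0.05 (18.5% of all) and DESeq2 called 1 (7.64% of all). In SNI-DMI versus Sham-DMI 0 of 10 passed (0.402% of all), 3 had an unadjusted p under 0.05 (12.1% of all) and DESeq2 called 0 (2.21% of all). The difference between the injury effect under DMI and under saline gave 0 of 10 (0% of all), with 2 genes under an unadjusted p of 0.05 (7.92% of all) and 0 called by DESeq2 (0.0749% of all). By the study's own looser cut-off, an unadjusted p under 0.05 with a log2 fold change of at least 0.32 either way, 1 gene passed in SNI-Saline versus Sham-Saline (P2ry1; 7.15% of all), 2 in SNI-DMI versus SNI-Saline (P2rx2 and P2ry12; 5.73%), 1 in Sham-DMI versus Sham-Saline (P2ry12; 11.5%), 0 in SNI-DMI versus Sham-DMI (5.41%) and 2 in the difference (P2rx5 and P2rx6; 3.45%).

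**Figure D2:**
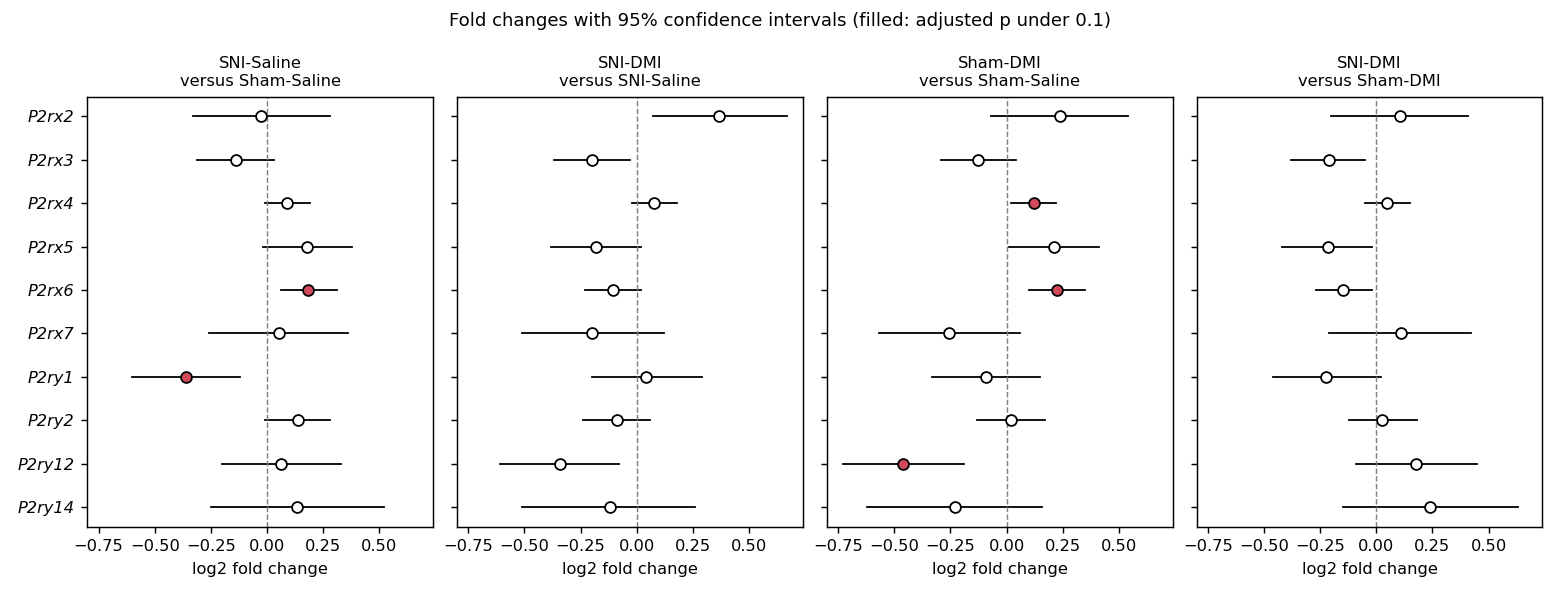
Log2 fold change of each purinergic receptor gene in each comparison, with 95% confidence intervals of the edgeR fit; filled points passed an adjusted p under 0.1. The 5 filled points are P2rx6 (0.18) and P2ry1 (-0.36) for injury under saline, and P2rx4 (0.12), P2rx6 (0.22) and P2ry12 (-0.46) for DMI in sham mice.

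P2rx3 (ENSMUSG00000027071, chr2:84998583-85037462, minus strand), the main ATP channel subunit of nonpeptidergic nociceptors, had 232, 193, 201 and 209 CPM in Sham-Saline. It had 180, 181, 216 and 181 CPM in SNI-Saline and 170, 211, 203 and 180 CPM in Sham-DMI. In SNI-DMI it had 170, 171, 171 and 147 CPM. All 4 SNI-DMI mice thus lay below all SNI-Saline mice and below all Sham-Saline mice, while the other pairs of groups overlapped. The log2 fold change of SNI-DMI versus SNI-Saline was -0.20 with a 95% interval of -0.37 to -0.03 (adjusted p = 0.188, edgeR), and that of SNI-DMI versus Sham-DMI was -0.21 (-0.38 to -0.05; adjusted p = 0.301). For SNI-Saline versus Sham-Saline it was -0.14 (-0.31 to 0.03; adjusted p = 0.307), so none passed the threshold. Without Sham-DMI 1 the difference of SNI-DMI from Sham-DMI was -0.28 and passed. Groups without overlap were found for 13.3% of all genes in SNI-DMI versus SNI-Saline. That share was not computed for SNI-DMI against Sham-Saline. All 9 markers of nonpeptidergic neurons had a log2 fold change below 0 in SNI-Saline versus Sham-Saline. Of these 5 passed as lower, where 12% of all genes passed. Their list median was -0.31, with summed levels of 2057 to 2329 CPM against 2312 to 2840 CPM. In SNI-DMI versus SNI-Saline 0 of the 9 passed by edgeR or DESeq2 and 0 had an unadjusted p under 0.05, with a median of -0.00 and 2025 to 2465 CPM in SNI-DMI. Their part in the P2rx3 values was not tested.

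P2rx2 (ENSMUSG00000029503, chr5:110339812-110343212, minus strand), the subunit that joins P2X3 in heteromeric channels, had 7.76, 7.73, 7.18 and 9.37 CPM in Sham-Saline and 8.71, 8.78, 5.81 and 8.17 CPM in SNI-Saline. Under DMI it had 11.2, 9.11, 7.77 and 9.63 CPM in Sham-DMI and 9.85, 12.1, 8.18 and 10.5 CPM in SNI-DMI. The DMI groups reached higher values, and the groups overlapped. SNI-DMI exceeded SNI-Saline by 0.37 on the log2 scale (0.07 to 0.67; adjusted p = 0.184, edgeR), which did not pass. Injury under saline gave -0.03 (-0.33 to 0.28; adjusted p = 0.942).

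P2rx6 (ENSMUSG00000022758, chr16:17561885-17577800, plus strand) codes for a subunit that forms poor channels alone and joins P2X2 or P2X4. It had 36.1, 35.9, 33.3 and 31.8 CPM in Sham-Saline, 41.2, 39.7, 34.9 and 39.8 CPM in SNI-Saline, 42.8, 37.7, 39.6 and 40 CPM in Sham-DMI, and 37.4, 35.4, 35.8 and 36 CPM in SNI-DMI. Sham-Saline was the lowest group by its mean (34.3 ± 2.12 CPM), SNI-DMI came next (36.2 ± 0.879 CPM), and the mice with only the injury or only the drug averaged 38.9 ± 2.76 and 40 ± 2.13 CPM. Both single changes passed the threshold, by 0.18 (SE 0.0598, adjusted p = 0.0764) for injury under saline, where the groups overlapped, and by 0.22 (SE 0.0599, adjusted p = 0.0172) for DMI in sham mice, where they did not (17.1% of all genes). SNI-DMI lay below Sham-DMI in every mouse, at -0.15 (-0.27 to -0.02; adjusted p = 0.339; groups without overlap in 5.04% of all genes). The difference between the injury effect under DMI and under saline was -0.33 (SE 0.0846, adjusted p = 0.619) and did not pass. The injury call was lost on leaving out Sham-Saline 3 or 4 or SNI-Saline 1, 2 or 4, with log2 fold changes of 0.15 to 0.24 and adjusted p of 0.0281 to 0.192 over the 16 fits without 1 library. The DMI call held in all 16. With each library's trends on GC content and exon length removed, the injury difference under saline was 0.13 (adjusted p = 0.251) and did not pass, while that under DMI was -0.23 (adjusted p = 0.0901) and passed. Without the filter on low counts the injury call under saline was lost as well (adjusted p = 0.114). Alternatives that kept all mice gave an adjusted p of 0.0432 to 0.494 for injury under saline, of 0.00344 to 0.298 for DMI in sham mice and of 0.0901 to 0.514 for injury under DMI. P2rx6 shares 554 exon bases with Slc7a4 on the opposite strand, and reads on those bases were not counted for either gene.

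P2rx5 (ENSMUSG00000005950, chr11:73160421-73172685, plus strand), a P2X subunit found in sensory neurons, had a like order of group means with wider intervals. It had 16.1, 14.9, 15.1 and 11.7 CPM in Sham-Saline and 16.7, 15.4, 16.6 and 16.6 CPM in SNI-Saline. It had 16.9, 17.5, 17.9 and 14.7 CPM in Sham-DMI and 15.8, 12.9, 15.3 and 13.5 CPM in SNI-DMI, and all groups overlapped. Injury gave 0.18 (-0.02 to 0.38; adjusted p = 0.28, edgeR) under saline and -0.22 (-0.42 to -0.02; adjusted p = 0.375) under DMI. DMI in sham mice gave 0.21 (0.01 to 0.41; adjusted p = 0.144), which passed by DESeq2, with the replicate number as a block (adjusted p = 0.0939), and without Sham-Saline 1 or Sham-DMI 4, where it reached 0.29. Alternatives that kept all mice gave an adjusted p of 0.0931 to 0.298. The difference of the injury effects was -0.39 (SE 0.135, adjusted p = 0.619). Over the 16 libraries the log2 CPM of P2rx5 and P2rx6 had a Pearson r of 0.64, a description of libraries that share their groups.

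P2rx4 (ENSMUSG00000029470, chr5:122707544-122729738, plus strand), a channel of microglia and macrophages that is also made in neurons, varied little between mice. Sham-Saline mice had 42.6, 42.1, 42 and 41.6 CPM, and SNI-Saline mice had 47.1, 45.1, 43.9 and 43.1 CPM. Sham-DMI mice had 47.8, 44.8, 42.6 and 48 CPM, and SNI-DMI mice had 48.8, 46.1, 48.2 and 46 CPM. Sham-Saline was lowest, and it overlapped only with Sham-DMI, at 42.6 CPM. The share of all genes without overlap was not computed for SNI-DMI against Sham-Saline. Sham-DMI exceeded Sham-Saline by 1.09-fold (log2 fold change 0.12 with an SE of 0.048, adjusted p = 0.089, edgeR). Injury under saline gave 0.09 (-0.01 to 0.19; adjusted p = 0.271) although the groups did not overlap, which held for 15.4% of all genes. The DMI call was lost without Sham-Saline 2, 3 or 4, Sham-DMI 1 or 4 or SNI-DMI 2, with log2 fold changes of 0.12 to 0.17 and adjusted p of 0.0277 to 0.16 over the 16 fits. It also fell short with the labels' replicate number as a block (0.12, adjusted p = 0.107), with the 8 libraries alone (adjusted p = 0.128) and without the filter on low counts (adjusted p = 0.195), with a range of 0.00936 to 0.342 over the alternatives that kept all mice.

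P2rx7 (ENSMUSG00000029468, chr5:122643911-122691432, plus strand), the low-affinity ATP channel of macrophages and glia whose opening activates the inflammasome, was widely spread between mice of a group. It had 28.7, 37.2, 32.5 and 27.4 CPM in Sham-Saline and 28.4, 32.2, 37.8 and 31.9 CPM in SNI-Saline. It had 18.2, 23.3, 29.4 and 34.6 CPM in Sham-DMI and 27.6, 24.6, 30.1 and 31.4 CPM in SNI-DMI. All groups overlapped, and the Sham-DMI mice were the most spread. DMI in sham mice gave -0.26 (-0.57 to 0.06; adjusted p = 0.267, edgeR), and injury under saline gave 0.05 (-0.26 to 0.36; adjusted p = 0.88). Without Sham-DMI 4 the DMI difference was -0.40 and passed the threshold.

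P2ry1 (ENSMUSG00000027765, chr3:61002795-61008982, plus strand), the ADP receptor coupled to Gq that sensory neurons carry, was the gene that fell after injury under saline. It had 61.7, 42.6, 50.7 and 57.3 CPM in Sham-Saline and 42.8, 37, 43.4 and 42.3 CPM in SNI-Saline. It had 51.5, 53.3, 44.1 and 49.8 CPM in Sham-DMI and 34.4, 49, 49 and 38.1 CPM in SNI-DMI. The injured groups were lower by their means (41.4 ± 2.93 and 42.6 ± 7.51 CPM against 53.1 ± 8.29 and 49.7 ± 3.99 CPM), with overlap in both treatments. Sham-Saline 2 lay among the SNI-Saline mice, and SNI-DMI 2 and 3 lay among the Sham-DMI mice. The log2 fold change was -0.36 under saline (SE 0.115, adjusted p = 0.0728, edgeR), or 0.78-fold, and -0.22 under DMI (-0.46 to 0.02; adjusted p = 0.456). The difference of 0.14 between these effects had an interval of -0.21 to 0.48 (adjusted p = 0.85). The call under saline was lost without Sham-Saline 1, 3 or 4 or SNI-Saline 1, 2 or 4 (-0.45 to -0.27 and adjusted p of 0.0273 to 0.208 over the 16 fits), with the replicate number as a block (-0.36, adjusted p = 0.108) and with GC content and length trends removed (-0.33, adjusted p = 0.134), and alternatives that kept all mice gave 0.0336 to 0.408 for the adjusted p. P2ry1 shares 992 exon bases with the antisense gene Gm37035, which had a mean of 73.4 reads per library, and reads on these bases were not counted for either. By log2 CPM over the 16 libraries the genes most like P2ry1 were Slc17a8 (Pearson r = 0.94), the vesicular glutamate transporter of C-fibre low-threshold mechanoreceptors, St6galnac3 (r = 0.94) and Kcnd3 (r = 0.93), a potassium channel subunit. All 4 markers of those mechanoreceptors, Slc17a8 included, had a log2 fold change below 0 after injury under saline. Of these 1 passed as lower, where 12% of all genes passed. Their list median was -0.24, with summed levels of 229 to 247 CPM against 212 to 297 CPM, and their part in the P2ry1 result was not tested.

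P2ry12 (ENSMUSG00000036353, chr3:59216272-59262871, minus strand), the ADP receptor of microglia and platelets and the target of clopidogrel, was the gene that fell under DMI in sham mice. It had 6.12, 5.59, 4.89 and 6.05 CPM in Sham-Saline and 6.54, 5.18, 5.83 and 6.08 CPM in SNI-Saline. It had 3.60, 4.52, 3.57 and 4.73 CPM in Sham-DMI and 4.78, 4.56, 3.84 and 5.43 CPM in SNI-DMI. All Sham-DMI mice were below all Sham-Saline mice (groups without overlap in 17.1% of all genes). In the injured groups, 3 of the 4 SNI-DMI mice were below all SNI-Saline mice. In sham mice the log2 fold change was -0.46 (SE 0.128, adjusted p = 0.0207, edgeR), or 0.73-fold, and it held in all 16 fits without 1 library (-0.52 to -0.38). In injured mice it was -0.34 (-0.61 to -0.08; adjusted p = 0.163), which did not pass by edgeR, while DESeq2 gave an adjusted p of 0.0962, the lowest of a range up to 0.554 over the alternatives that kept all mice. Injury itself gave 0.06 (-0.20 to 0.33; adjusted p = 0.823) under saline. With each library's trends on GC content and exon length removed, the DMI difference in sham mice was -0.22 (adjusted p = 0.239) and did not pass, and alternatives that kept all mice gave 0.00585 to 0.239 for the adjusted p.

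The reads of P2ry12 come from a crowded stretch of chromosome 3. P2ry12, P2ry13 and P2ry14 lie on the minus strand within the plus-strand gene Med12l, whose exons share 9 bases with those of P2ry12 and 0 with those of P2ry14. The counts did not use the strand of the reads: of 76 genes that lie wholly within the exons of a well-read gene on the other strand, 75 had 0 reads in all 16 libraries. Unspliced Med12l transcripts could therefore add to the receptors. Med12l was lower in Sham-DMI than in Sham-Saline (log2 fold change -0.39, adjusted p = 0.0192, edgeR), as P2ry12 was. Med12l was also lower after injury under saline (-0.41, adjusted p = 0.0372), where P2ry12 gave 0.06, and the part of Med12l in the P2ry12 counts was not tested. Of 14 macrophage markers, 13 had a log2 fold change above 0 after injury under saline and 9 passed as higher, where 12% of all genes passed. The list median was 0.68, with summed levels of 224 to 407 CPM against 174 to 203 CPM. In Sham-DMI versus Sham-Saline, where 23.4% of all genes passed, 13 of the 14 had a log2 fold change below 0 and 1 passed as lower. The median was -0.19, with 133 to 192 CPM. Of 11 neutrophil markers 10 were tested. In Sham-DMI versus Sham-Saline 9 of these had a log2 fold change below 0 and 7 passed as lower. Their median was -1.58, with summed levels of 4.05 to 19 CPM against 10.9 to 41.3 CPM. In SNI-DMI versus SNI-Saline, where 2.93% of all genes passed, all 10 lay below 0 and 2 passed as lower. The median was -1.44, with 4.69 to 14.3 CPM against 16.4 to 52.5 CPM. The median for injury under saline was -0.01. Cxcr2, a defining neutrophil marker, averaged under 0.1 CPM over the 16 libraries. The part of these cells in the P2ry12 values was not tested. The genes most like P2ry12 over the 16 libraries were Sema3c (r = 0.87), March1 (r = 0.87) and Mmachc (r = 0.86).

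P2ry14 (ENSMUSG00000036381, chr3:59113855-59153618, minus strand), the receptor for UDP-glucose and other UDP-sugars, was the lowest of the 10. It had 3.03, 2.63, 3.07 and 2.29 CPM in Sham-Saline and 2.93, 3.39, 2.68 and 3.06 CPM in SNI-Saline. It had 1.83, 1.65, 2.87 and 3.09 CPM in Sham-DMI and 2.86, 2.33, 2.57 and 3.33 CPM in SNI-DMI. Sham-DMI 1 and 2 were lowest, and all groups overlapped. The log2 fold changes lay between -0.23 and 0.24 and none passed. The widest interval was that of the difference between the injury effects, -0.44 to 0.66, and that of SNI-DMI versus Sham-DMI was -0.15 to 0.63. P2ry14 had an r of 0.72 with P2rx7 over the 16 libraries, the highest between any pair of the 10 genes.

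P2ry2 (ENSMUSG00000032860, chr7:100996568-101012866, minus strand), the Gq-coupled receptor for ATP and UTP, had 21.2, 24.1, 26.5 and 22.9 CPM in Sham-Saline and 24.9, 26.8, 26.5 and 25.8 CPM in SNI-Saline. It had 23.9, 22.3, 27.3 and 22.8 CPM in Sham-DMI and 24.8, 23.6, 24.6 and 24.8 CPM in SNI-DMI. Every SNI-DMI mouse lay below every SNI-Saline mouse, by a small margin (groups without overlap in 13.3% of all genes). That difference was -0.09 (-0.24 to 0.06; adjusted p = 0.526, edgeR), and injury under saline gave 0.14 (-0.01 to 0.28; adjusted p = 0.257). Among the genes most like P2ry2 over the 16 libraries was Col4a2 (r = 0.85), a basement membrane collagen.

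**Figure D3:**
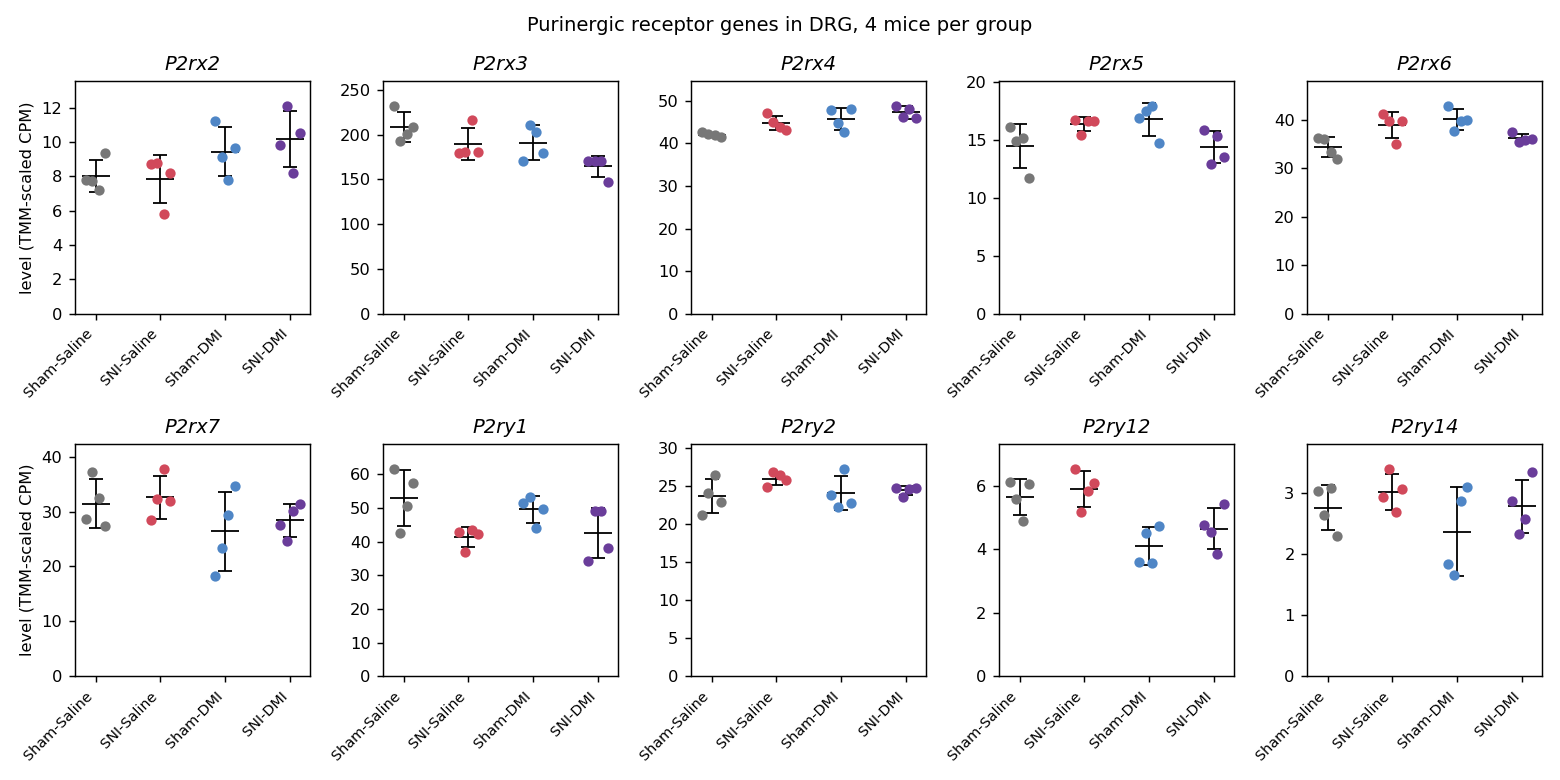
CPM of the 10 purinergic receptor genes in every mouse, with 1 point per library, a bar at the mean of each group and whiskers of 1 SD (n = 4). The Sham-DMI points of P2ry12 (3.57 to 4.73 CPM) lie below all Sham-Saline points (4.89 to 6.12 CPM), and the SNI-DMI points of P2rx3 (147 to 171 CPM) below all SNI-Saline points (180 to 216 CPM). Groups did not overlap for 17.1% and 13.3% of all genes in these comparisons.

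The share of read pairs that fell on no gene moved with several of these genes. It was 8.67% to 9.44% in Sham-Saline, 7.1% to 8.79% in Sham-DMI, 7.73% to 9.14% in SNI-Saline and 7.42% to 8.38% in SNI-DMI, and Sham-Saline had the highest median (8.96%). Over the 16 libraries P2rx3 followed it with a Pearson r of 0.85 (permutation p = 3e-05, adjusted p = 0.0003 over the 10 genes) and a Spearman rho of 0.85 (permutation p = 7e-05, adjusted p = 0.0007). The r was 0.76 without the libraries farthest from the median, Sham-Saline 1 and SNI-Saline 3, and 0.85 within groups. The permutations shuffled all 16 libraries without regard to group, so their p-values also hold differences between groups. SNI-Saline 3, the mouse with 216 CPM of P2rx3 against 180 to 181 CPM in its group, had 9.14% against 7.73% to 7.78% in the others. P2rx2 ran the other way, with an r of -0.70 (permutation p = 0.00238, adjusted p = 0.0119; rho -0.70, permutation p = 0.00387, adjusted p = 0.0193; -0.61 without the 2 libraries and -0.72 within groups). P2rx6 had an r of -0.66 (permutation p = 0.00604, adjusted p = 0.0201; rho -0.56, permutation p = 0.0263, adjusted p = 0.0824; -0.68 and -0.65). P2rx4 had an r of -0.61 (permutation p = 0.0135, adjusted p = 0.0339; rho -0.54, permutation p = 0.033, adjusted p = 0.0824; -0.58 without the 2 libraries), which was -0.17 within groups and so did not hold there. The other 6 genes lay between -0.27 and 0.52, and none had an adjusted p under 0.05. Correlations with this share were not computed over all genes, so they cannot be read as particular to these 10.

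**Figure D4:**
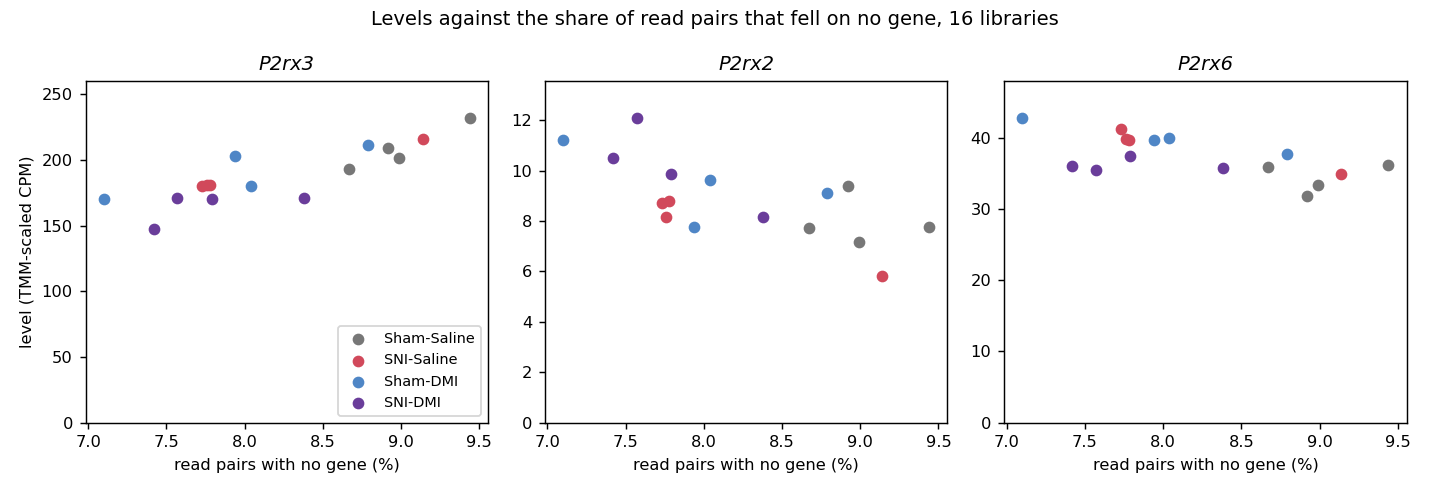
Levels of purinergic receptor genes against the percentage of read pairs on no gene, with 1 point per library and colours for the 4 groups. P2rx3 rises with the share (r = 0.85) while P2rx2 (r = -0.70) and P2rx6 (r = -0.66) fall with it, with r taken on log2 CPM.

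With this share as a covariate, chosen after the data were seen, 0 of the 10 genes passed in any comparison, and the share of all genes that passed was 1.02% for injury under saline and 4.96% for DMI in sham mice. P2rx6 was then 0.096 (adjusted p = 0.494) for injury under saline and 0.125 (adjusted p = 0.298) for DMI in sham mice, P2ry1 was -0.246 (adjusted p = 0.408) after injury and P2rx4 was 0.105 (adjusted p = 0.342) under DMI. P2ry12 was -0.439 (adjusted p = 0.154), near its value of -0.46 without the covariate. P2rx3 turned to 0.03 for injury under saline and 0.069 for DMI in sham mice, and P2rx2 turned to -0.068 for DMI in sham mice. The covariate also differs between the groups, so its part and that of surgery or drug cannot be told apart.

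The rest of the pathway was taken from a list of 40 genes, of which 32 were tested. In SNI-Saline versus Sham-Saline 1 passed as higher and 4 as lower, 5 of 32 against 12% of all genes, with a median of 0.00. DESeq2 called 8 there, against 14.7% of all genes. In Sham-DMI versus Sham-Saline 5 passed as higher and 1 as lower, 6 of 32 against 23.4% of all genes, with a median of -0.06. DESeq2 called 6 there, against 25.6% of all genes. Both edgeR counts are near the edgeR shares of 12% and 23.4%. SNI-DMI versus SNI-Saline gave 0 by edgeR (2.93% of all genes), 4 by DESeq2 (7.64%) and 5 at an unadjusted p under 0.05 (18.5%). SNI-DMI versus Sham-DMI gave 1 higher and 0 lower by edgeR (0.402%), 4 by DESeq2 (2.21%) and 8 at an unadjusted p under 0.05 (12.1%). The difference between the injury effects gave 0 by edgeR (0%), 0 by DESeq2 (0.0749%) and 1 at an unadjusted p under 0.05 (7.92%).

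Of 11 ectonucleotidases tested, 1 passed as higher and 1 as lower in SNI-Saline versus Sham-Saline, where 12% of all genes passed. The list median was 0.04, and the other 9 did not pass. Entpd2, which turns ATP into ADP and is made by glial cells, averaged 19.3 ± 0.851 CPM in Sham-Saline, 20.1 ± 1.43 CPM in Sham-DMI, 24.9 ± 2.23 CPM in SNI-Saline and 28.2 ± 5.82 CPM in SNI-DMI. It was higher after injury by 0.37 (SE 0.107, adjusted p = 0.0522, edgeR) under saline and by 0.49 (SE 0.107, adjusted p = 0.0772) under DMI. The groups did not overlap in either, which held for 15.4% of all genes under saline and 5.04% under DMI. Nt5e, the enzyme that makes adenosine from AMP, averaged 77.3 ± 4.65 CPM in Sham-Saline and 64.7 ± 1.73 CPM in SNI-Saline, with a log2 fold change of -0.26 (adjusted p = 0.043, edgeR). In Sham-DMI versus Sham-Saline, where 23.4% of all genes passed, 2 of 11 passed as higher, Entpd3 by 0.16 (adjusted p = 0.0958, edgeR) and Entpd6 by 0.24 (adjusted p = 0.0182).

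For the lists of this paragraph the shares of all genes that passed were 12% after injury under saline and 23.4% in Sham-DMI versus Sham-Saline. Of 8 tested genes for adenosine receptors and the handling of adenosine, 1 passed as lower after injury under saline. This was Adora1, the adenosine receptor coupled to Gi that damps nociceptors, at 122 ± 10.3 CPM in Sham-Saline and 105 ± 4.24 CPM in SNI-Saline (-0.21, adjusted p = 0.0722, edgeR). In Sham-DMI versus Sham-Saline 2 passed as higher, both nucleoside transporters, Slc29a1 by 0.17 (adjusted p = 0.0859, edgeR) and Slc29a2 by 0.32 (adjusted p = 0.00768). Of 11 tested genes of ATP release, 2 passed as lower after injury under saline, Lrrc8b (-0.36, adjusted p = 0.017, edgeR) and Lrrc8c (-0.22, adjusted p = 0.0335), subunits of the volume-regulated anion channel. In Sham-DMI versus Sham-Saline 1 passed as higher, Lrrc8a by 0.33 (adjusted p = 0.041, edgeR), and 1 as lower, Lrrc8b (-0.29, adjusted p = 0.0168).

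Another 5 nucleotide receptor genes were looked up. P2ry6, the UDP receptor of macrophages, had 1.93 to 2.22 CPM in Sham-Saline, 1.62 to 2.32 CPM in Sham-DMI, 2.35 to 3.57 CPM in SNI-Saline and 2.31 to 3.92 CPM in SNI-DMI. It was above sham in injured mice by 0.46 under saline (adjusted p = 0.133, edgeR) and by 0.64 under DMI (adjusted p = 0.18), and neither passed by edgeR. DESeq2 called both, with adjusted p of 0.0917 and 0.0569. P2ry13, an ADP receptor beside P2ry12, averaged 0.895 ± 0.121 CPM in Sham-Saline and 0.639 ± 0.187 CPM in Sham-DMI (-0.47, adjusted p = 0.179). The other 3 were too low to test. P2rx1 had 1 to 9 reads per library, P2ry10 had 0 to 20 and P2ry4 had 0 to 5, with 0 in 8 libraries, which allows up to 3 reads each.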

How the data were processed

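The authors aligned paired reads from stranded mRNA libraries to mm10, with HISAT2, HTSeq and DESeq2 named in the submitters' processing notes; versions of the aligner and the counter and the annotation are not given in the sources used here. The deposited values are whole-number counts of reads per Ensembl gene without normalization. Closing lines of each file hold read pairs on no gene (7.1% to 9.44%), on several genes (3.05% to 3.41%), aligned in several places (5.71% to 6.4%), not aligned (0.68% to 0.99%) or of low quality (0.95% to 1.2%), and were left out of library sizes and tests. Of 52636 genes, 52403 are in GENCODE M21 (GRCm38), which gave symbols, positions and exon lengths. No pair of libraries was identical.

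Counts were fitted in R 4.3.3 with edgeR 4.0.16 (filterByExpr on the 4 groups, TMM, 1 coefficient per group, glmQLFit and glmQLFTest on all 16 libraries). P-values were adjusted over all 21371 genes by Benjamini-Hochberg and called under 0.1. Alternatives were RLE size factors, no filter, DESeq2 1.42.0, the 8 libraries of a comparison, the replicate number as a block, GC content and length trends removed (mgcv 1.9.3, GC from the longest GENCODE transcript), each library left out, and, added after the data were seen, the share of read pairs on no gene as a covariate. CPM used the reads on tested genes times the TMM factor as library size, and RPKM the union of exons. Correlations of log2 CPM (prior count 2) used two-sided permutation tests. The lowest count of any of the 10 genes in a library was 107 reads. The parts of depth and of the spread between mice in the precision were not separated. All 10 genes are named. The 3 genes most like each were taken by Pearson r over the 16 libraries, the other listed pathway genes were named where called, with 5 further nucleotide receptors, and Med12l after its values were seen. The genes and lists were chosen with earlier results of these data known, so they are no independent evidence.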

Additional observations from a re-analysis of the deposited data

Results flagged for a closer look

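In each of the 4 groups of 4 mice, the gap from the highest or lowest mouse to its nearest neighbour was set against the whole range of the group by Dixon's test at the 95% level, for all 10 genes. Of the 40 groups so tested, 4 had such a mouse, and chance gives about 1 in 20. P2rx3 was 216 CPM in SNI-Saline 3 against 180 to 181 CPM in the other 3 mice, and 147 CPM in SNI-DMI 4 against 170 to 171 CPM. P2rx5 was 15.4 CPM in SNI-Saline 2 against 16.6 to 16.7 CPM. P2ry2 was 23.6 CPM in SNI-DMI 2 against 24.6 to 24.8 CPM.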

How the results depend on the processing

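Of 1140 values of single genes recomputed under an alternative, 1070 kept their direction and side of the threshold, 30 lost and 8 gained a call, and 32 changed sign. None of the 32 was in a comparison where the gene was called. For injury under saline the 2 calls became 1 without the filter, 1 with the replicate block, 0 with GC content and length trends removed, 0 with the share of read pairs on no gene as a covariate, and 0 to 2 with a library left out (0 without Sham-Saline 3 or 4 or SNI-Saline 1, 2 or 4). For SNI-DMI versus SNI-Saline DESeq2 gave 1 (P2ry12), and every fit with a library left out gave 0. For Sham-DMI versus Sham-Saline the 3 calls became 0 with the covariate, 2 without the filter, with the 8 libraries and with trends removed, and 2 to 4 with a library left out. For SNI-DMI versus Sham-DMI the removal of trends gave 1 (P2rx6), and leaving out a library gave 0 to 1. The difference between injury effects gave 0 throughout. The cause was not tested. Over all genes, the 2571 calls for injury under saline became 1044 with trends removed and 218 with the covariate (682 to 3286 with a library left out), the 626 for DMI in injured mice became 1632 by DESeq2, 1812 with the 8 libraries, 172 with the block and 51 with trends removed (0 to 1842), the 5010 for DMI in sham mice became 1060 with the covariate (3286 to 6094), the 86 for injury under DMI became 310 without the filter, 473 by DESeq2, 9 with the 8 libraries, 216 with trends removed and 130 with the covariate (17 to 850), and the 0 for the difference became 16 by DESeq2 (0 to 1).

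With GC content and length trends removed, P2ry14 changed sign for DMI in injured mice (0.072), DMI in sham mice (0.104) and the difference of effects (-0.032), P2ry1 for DMI in sham mice (0.031), and P2rx2 and P2ry2 in SNI-DMI versus Sham-DMI (0 and -0.07). With the covariate, sign changed for P2rx3 (0.03, injury under saline), for P2rx3 (0.069), P2rx2 (-0.068), P2ry1 (0.037) and P2ry2 (-0.011) in Sham-DMI versus Sham-Saline, and for P2rx7 in the difference (-0.032). Leaving out a library changed the sign of P2rx2 (-0.073 to 0.1) and P2rx7 (-0.022 to 0.145) for injury under saline, of P2ry1 in SNI-DMI versus SNI-Saline (-0.035 to 0.144), of P2ry1 (-0.187 to 0.004) and P2ry2 (-0.027 to 0.1) in Sham-DMI versus Sham-Saline, of P2rx7 (-0.049 to 0.254) and P2ry2 (-0.013 to 0.101) in SNI-DMI versus Sham-DMI, and of P2rx7 (-0.100 to 0.203) and P2ry14 (-0.041 to 0.259) in the difference.

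Removing the trends also moved the balance of all calls: the share of called genes that were higher went from 45% to 90.2% for DMI in injured mice, from 49.4% to 81% for DMI in sham mice and from 93% to 46.8% for SNI-DMI versus Sham-DMI. Same-numbered replicates of different groups had correlations of -0.081 to 0.184 in their deviations from the group means, against -0.248 to 0.169 for different numbers, and 7 of 16 libraries correlated best with their own number, so the numbers were not taken as a pairing. With the replicate block the calls were 1 for injury under saline and 3 for DMI in sham mice, with P2rx5 (0.215, adjusted p = 0.0939) gained and P2rx4 lost in the latter.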

Other observations

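The ratio of P2rx2 to P2rx3 per exon length, the subunits of the heteromeric channel of sensory neurons, was looked at after the values of both genes were seen and was not tested. As P2rx2 per 100 of P2rx3 it was 3.63, 4.35, 3.86 and 4.86 in Sham-Saline and 5.26, 5.26, 2.91 and 4.89 in SNI-Saline. Under DMI it was 7.14, 4.68, 4.15 and 5.81 in the sham mice and 6.26, 7.69, 5.19 and 7.7 in the injured mice. All 4 SNI-DMI mice were above all Sham-Saline mice, and the other groups overlapped with one or the other. How often ratios of other gene pairs separate these groups was not computed. P2rx3 rose and P2rx2 fell over the libraries with the share of read pairs on no gene (r = 0.85 and -0.70), which had its highest median in Sham-Saline. The lowest ratio, in SNI-Saline 3, came with a share of 9.14%, and that of 7.14 in Sham-DMI 1 with a share of 7.1%. The part of that share in the ratio was not tested. These are RNA ratios over whole ganglia and say nothing on subunits in one cell.

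Over the 16 libraries the gene most like P2rx3 in log2 CPM was Samd12 (r = 0.96), followed by 9230114K14Rik (r = 0.95) and Mbd5 (r = 0.94). P2rx2 was most like Gfra4 (r = 0.90), a receptor of the GDNF family, P2rx7 was most like Cyp2d22 (r = 0.96) and Arhgef10 (r = 0.95), and P2rx5 was most like Cacna2d3 (r = 0.91), a calcium channel subunit. P2rx4 was most like Psmd9 (r = 0.93), and P2rx6 was most like Cela1 (r = 0.90). These genes were picked from all genes tested for their high r, so its size is a description only.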
